A study of Mus musculus with 2 samples.

Results

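The receptors examined were Kit, Flt3, Epor, Csf1r, Csf2ra, Csf2rb, Csf3r, Il3ra and Il7r, 9 haematopoietic cytokine receptor genes of the 32285 genes in the count tables. They were chosen by symbol, as the receptors through which blood cells sense growth factors, and not by their values here, and all 9 had rows in both libraries. Cells came from 2 livers of chimaeric mice. Both hosts were Hhex knockouts that had been injected at the blastocyst stage with tetraploid (4N) embryonic stem cells carrying tdTomato. One liver is labelled E18.5, the other P180 (postnatal day 180), each is 1 sample (n = 1) in 1 library, and both were kept under normal husbandry. Both livers share the knockout and the injected 4N cells. No library from an uninjected liver was analysed here, and the feature lists hold 0 features named tdTomato, so host and injected cells could not be told apart.

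Cytokine receptors let a blood cell read the growth factors around it. Kit, Flt3 and Csf1r are receptor tyrosine kinases for stem cell factor, Flt3 ligand and macrophage colony-stimulating factor. Epor and Csf3r act as pairs of the same chain and signal through Jak2 and Stat proteins, for erythropoietin and granulocyte colony-stimulating factor. Csf2ra and Il3ra are ligand-binding chains for GM-CSF and interleukin-3 that share the signalling chain Csf2rb, and Il7r pairs with Il2rg for interleukin-7 or with Crlf2 for thymic stromal lymphopoietin. The fetal liver is the main site of blood formation before birth; in the adult liver, blood cells are mainly resident macrophages, lymphocytes and passing leukocytes.

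The cells went against the stage labels, which bears on every comparison between the libraries. Whether the stage labels were exchanged could not be tested here; if they were, every direction given below between E18.5 and P180 would turn around as a statement on age. After filtering, 4543 cells remained under the label E18.5 and 8847 under P180, with a median of 4726 and 5906 UMIs (unique molecular identifiers, each standing for 1 captured transcript). The library labelled E18.5 held mostly B cell-like (1307), endothelial-like (1017) and T cell-like cells (490) and only 81 erythroid-like cells. The library labelled P180 held 6934 erythroid-like cells, 1068 neutrophil-like cells and B cell-like cells with precursor transcripts. Classes are named by marker genes that exclude the 9 receptors. The libraries shared 28 barcodes, of which 11 remained after filtering; without them the counts of receptors and of receptor and class pairs given below were the same. Median mitochondrial shares of the kept cells were 8.73% and 0.635%. With 1 library per label there is no replicate, and no test between labels or classes was possible. A level is the sum of UMIs for a gene in a class, scaled to 1000000 UMIs (CPM); values in brackets after a level or a share are 95% intervals, exact Poisson, exact binomial or, for a ratio, exact conditional. They cover counting error only. Levels are compared within a gene, not between genes.

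Across whole libraries, Epor was the receptor with the fewest UMIs under E18.5 (21 UMIs, 0.727 CPM) against 1914 UMIs (23.3 CPM) under P180. Il7r stood at 46.9 CPM under E18.5 and 6.57 CPM under P180, and Flt3 at 46.5 and 6.16 CPM. Csf2rb was at 34.3 and 32.3 CPM, with intervals that overlap. These totals follow the mixture of classes, so the levels were read class by class.

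Most receptors had 1 or a few blood classes of high level and lower levels in the rest. Under E18.5, 5 of the 9 receptors stood at least 2-fold higher in their top blood class than in the next among 9 blood classes. Under P180 this held for 4 of 9 among 5 blood classes. One of the 5 under E18.5, Epor, rests on 3 UMIs in macrophage-like cells and is not read as expression.

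**Figure D1:**
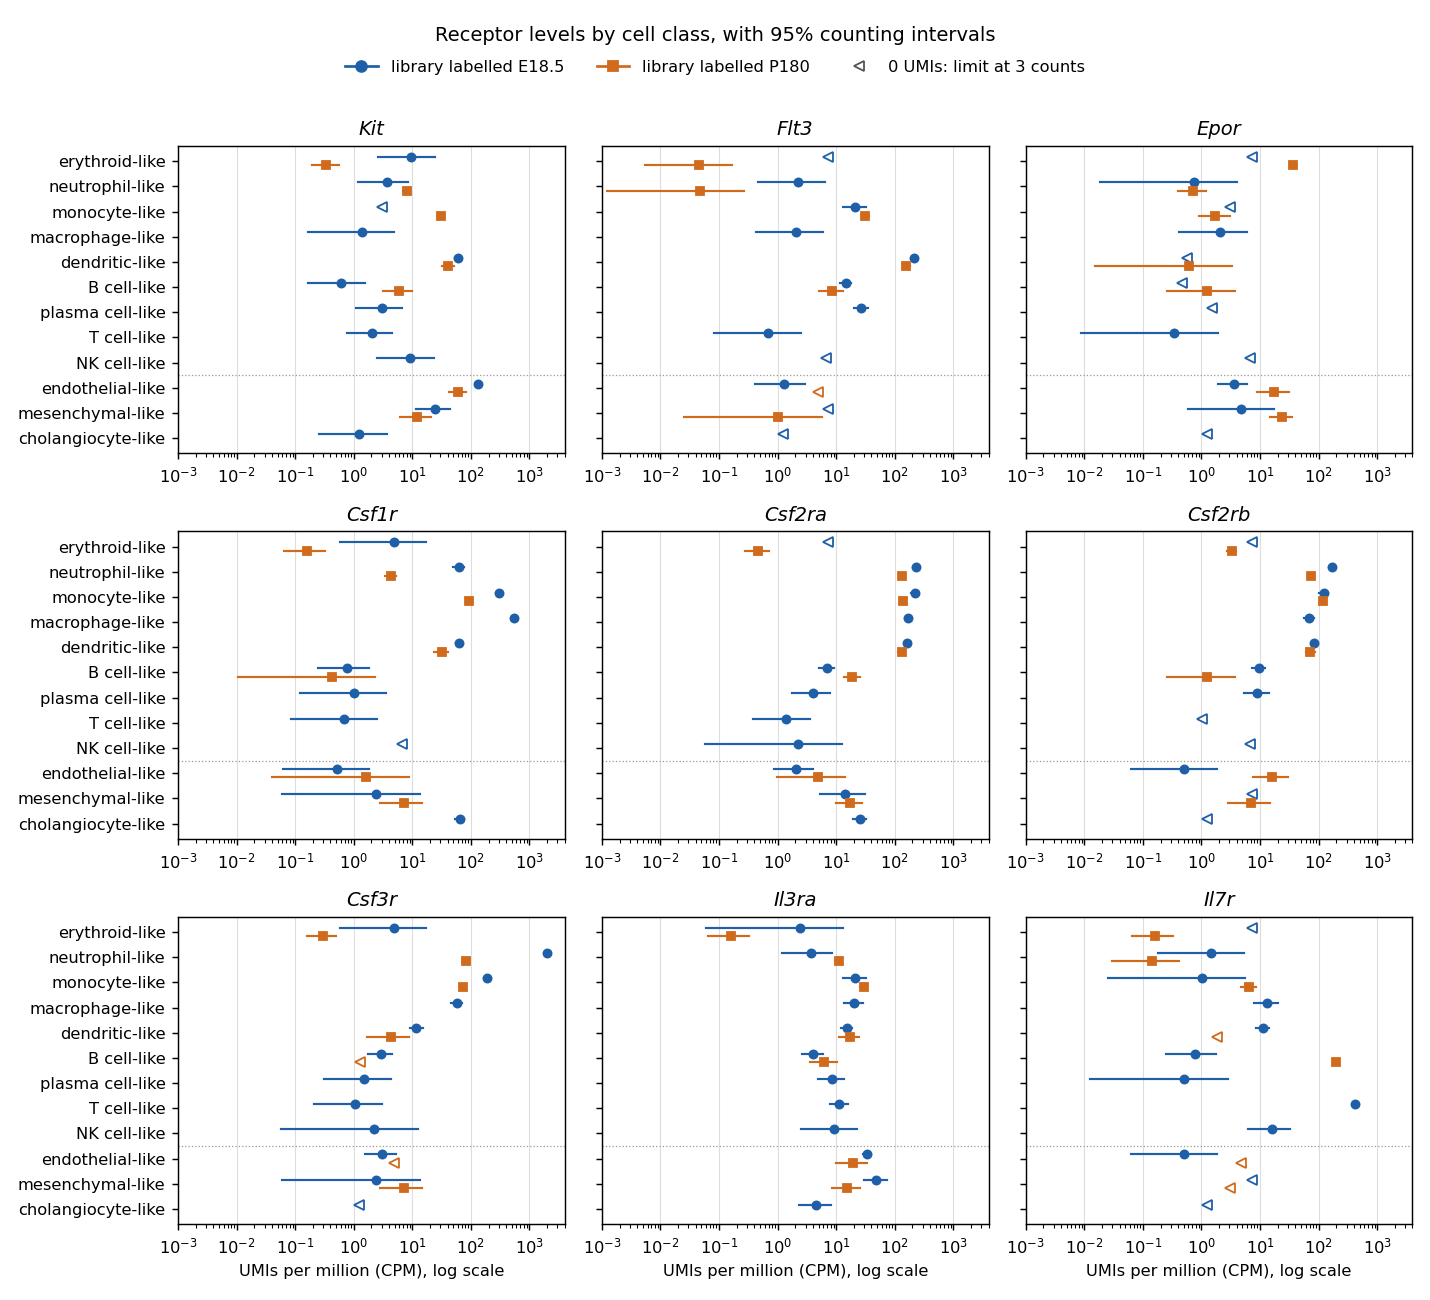
Each panel gives 1 receptor; the x axis is its level in CPM on a log scale, and the y axis is the cell class, with blood classes above the dotted line. Points are class sums with 95% counting intervals, blue circles for the library labelled E18.5, orange squares for P180, and open triangles mark classes with 0 UMIs at the level that 3 counts would give. Epor stands at 36.1 CPM in erythroid-like cells labelled P180, and Csf3r at 2017 CPM in neutrophil-like cells labelled E18.5.

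The promoter-side sequences of 3 receptors that were each set to 1 blood class are shown: Epor (erythroid-like, P180), Flt3 (dendritic-like, both libraries) and Csf3r (neutrophil-like, E18.5). RefSeq promoter windows (build GRCm38.p6) matched 7 of the 9 receptors. Each sequence ends before the first transcribed base in RefSeq and in GENCODE M21, and is written 5′ to 3′ on the gene's strand. Capitals mark matches of GATAA, the core read by GATA factors such as Gata1, and of GGAAG, a core read by ETS factors such as Spi1, searched on both strands, so that a match on the other strand reads TTATC or CTTCC.
Epor, chr9:21963577-21963826, minus strand: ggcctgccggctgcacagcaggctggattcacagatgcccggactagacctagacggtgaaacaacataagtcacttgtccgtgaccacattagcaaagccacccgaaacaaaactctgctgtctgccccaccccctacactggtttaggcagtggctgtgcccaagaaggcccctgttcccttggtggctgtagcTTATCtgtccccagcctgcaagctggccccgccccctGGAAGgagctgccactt
Flt3, chr5:147400490-147400739, minus strand: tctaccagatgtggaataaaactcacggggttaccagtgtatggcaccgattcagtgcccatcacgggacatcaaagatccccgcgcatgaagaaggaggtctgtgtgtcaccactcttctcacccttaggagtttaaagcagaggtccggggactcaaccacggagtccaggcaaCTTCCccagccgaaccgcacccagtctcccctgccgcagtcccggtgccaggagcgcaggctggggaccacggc
Csf3r, chr4:126024409-126024549, plus strand: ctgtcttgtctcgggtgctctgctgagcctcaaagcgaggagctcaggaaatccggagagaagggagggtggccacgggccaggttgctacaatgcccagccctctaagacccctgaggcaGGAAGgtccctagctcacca

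The Epor sequence held 1 GATAA, on the other strand and 54 bases before the RefSeq start, and 1 GGAAG 17 bases before it. Flt3 and Csf3r each held 1 GGAAG, 74 and 129 bases before their RefSeq starts, and no GATAA in these windows. GATAA was present in 23.0% of all 27025 promoters over the same 250 bases and GGAAG in 63.6%, and over the 141 bases shown for Csf3r the shares were 15.4% and 41.5%. These are matches of letters, not measured sites.

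Epor, the erythropoietin receptor of red cell precursors, stood well above the other named blood classes in 1 of them. In erythroid-like cells of the library labelled P180 it stood at 36.1 CPM (34.3 to 37.9), from 1588 UMIs in 17.6% of cells. The next blood class there, monocyte-like, was at 1.72 CPM (0.890 to 3.01). Neutrophil-like cells, which should lack the receptor, had a UMI in 1.31% of cells at a median depth of 16512 UMIs, against 5239 in erythroid-like cells. After each cell was thinned to 1000 UMIs, the shares were 4.11% in erythroid-like and 0% in neutrophil-like cells, with 460 and 12 shallower cells left out.

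Under the label E18.5 the 81 erythroid-like cells held 0 Epor UMIs, where 3 counts would give 7.16 CPM. Counted against that floor, Epor was 5.04-fold higher under P180, with a lower limit of 2.03 on the log2 scale. Gata1, the transcription factor needed for red cell formation, was also at 0 in these 81 cells, the only 1 of 16 erythroid markers without a UMI, and Klf1, a globin gene activator, was at 7.16 CPM against 164 CPM under P180. These 81 cells also held transcripts of 11 of 14 B cell markers, summed to 3532 CPM, with Vpreb1, Igll1 and Rag1 at 0; in erythroid-like cells labelled P180, 13 of 14 summed to 6.57 CPM. The part of these transcripts in the Epor result was not tested. A further 1352 barcodes under E18.5 had at least 50% globin UMIs but fewer than 200 genes; they also held 0 Epor UMIs (0 to 1.01 CPM).

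Other erythroid genes had the pattern most like that of Epor. Over 42 clusters with at least 30 cells, both libraries together, the 3 genes with the highest Pearson r of log2(CPM + 10) were Gata1 (0.96), Klf1 (0.96) and Mfsd2b (0.96), a sphingosine-1-phosphate exporter of red cells. The clusters share 2 libraries and their depths, so these correlations, and those below, describe only these libraries.

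Within the 6934 erythroid-like cells labelled P180, Epor was followed along the share of a cell's UMIs that came from globin genes, which rises as red cell precursors mature. The 5 bins held 170, 481, 1240, 2972 and 2071 cells. In CPM over the UMIs left after globin genes are taken out (non-globin CPM), Epor was 65.5 (49.2 to 85.5) under 10% globin, 83.1 (68.0 to 101) from 10 to 25%, 118 (108 to 130) from 25 to 50%, 114 (106 to 123) from 50 to 75% and 60.2 (51.9 to 69.4) at 75% and over. Both middle bins thus stood above the lowest and the highest bin, with intervals apart. The highest bin over the lowest gave a log2 ratio of -0.12 (-0.57 to 0.34), an interval that includes 0, but it was -0.79 with finer clusters (resolution 2) and -0.69 with 5 bins of equal cell number, both outside that interval. Whether the ends differ thus depends on these choices.

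The scale decided how Epor looked at the globin-rich end. In CPM over all UMIs it was 60.9, 67.7, 72.0, 39.6 and 12.0 from the lowest to the highest bin, and per 1000 cells it was 318, 218, 386, 256 and 90.8 UMIs. On all 3 scales the bin at 75% and over had the lowest level of the 5, though as non-globin CPM its interval overlaps that of the bin under 10%. Median UMIs per cell were 1206, 1153, 3143, 5175 and 6328, so the bins also differ in depth. A UMI of Mki67 or Top2a, genes of dividing cells, was found in 93.5%, 77.1%, 77.0%, 67.3% and 36.3% of cells.

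**Figure D2:**
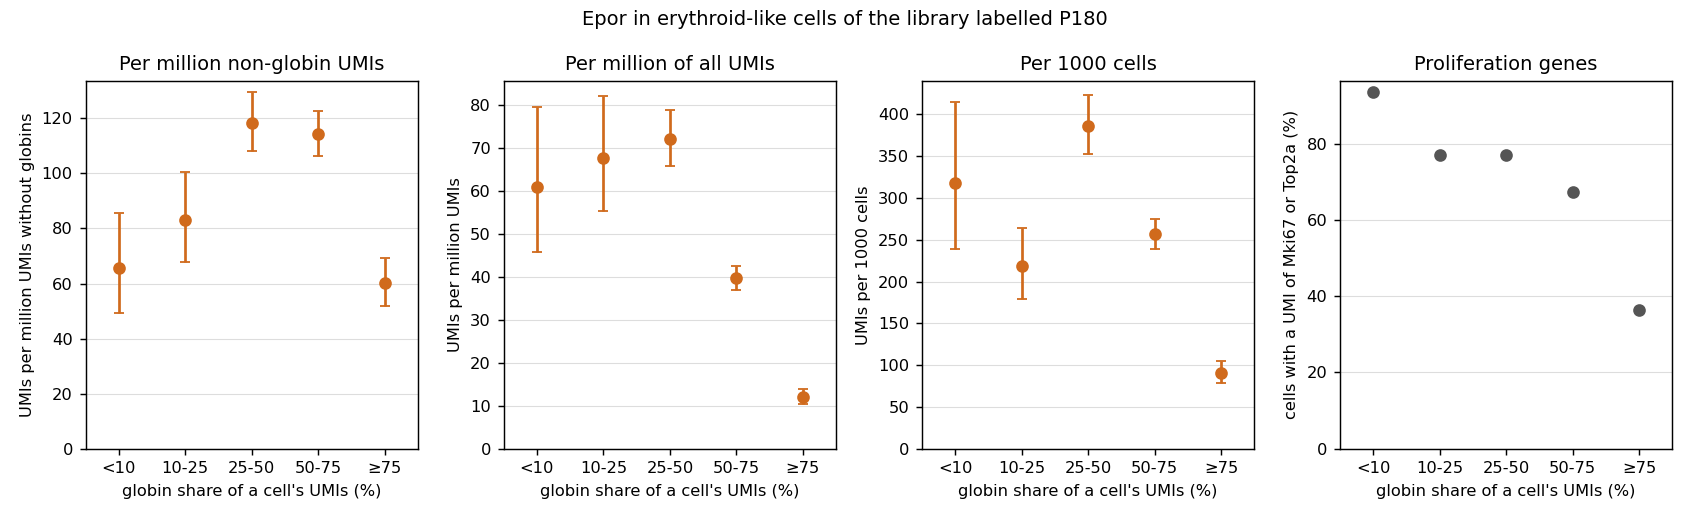
Epor in erythroid-like cells of the library labelled P180 by globin share of a cell's UMIs (x axis, 5 bins), as non-globin CPM, CPM over all UMIs and UMIs per 1000 cells, with 95% counting intervals; the last panel gives the percent of cells with a UMI of Mki67 or Top2a, without intervals. The bin at 75% and over has the lowest Epor level on each scale, at 60.2, 12.0 and 90.8; on the first its interval overlaps that of the bin under 10%.

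Among all 4227 genes with at least 50 UMIs in either end bin, 20.8% were at least 2-fold higher and 47.9% at least 2-fold lower at 75% globin and over than under 10%, with a median log2 ratio of -0.90. Epor was the only receptor of the 9 with that many UMIs, and at -0.12 it was in neither group. Of 15 listed genes read as downstream of erythropoietin and Stat5, 8 had enough UMIs. At the globin-rich end 5 of these were at least 2-fold higher and 1, Gfi1b (-3.37), lower, with a median of 2.47. The top bin holds more non-globin UMIs than the lowest, so the minimum favours genes high there. Id1, Pim2 and Cish passed through the top bin alone. Under the minimum, Erfe, Myc, Podxl, Pim3, Ccnd2 and Osm lay lower, by -1.66 to -3.92 on few UMIs, and Bcl2 had 0 UMIs against 7. The list as a whole thus gives no direction. Bcl2l1, which protects late red cell precursors from death, stood at 2587 non-globin CPM against 107 (log2 4.60, 4.30 to 4.92). Pim1, a Stat5-driven kinase, differed by 3.17 (2.99 to 3.36) and Tfrc, the transferrin receptor, by 0.88 (0.80 to 0.96). Cish, a feedback inhibitor that Stat5 induces, was at 54.7 against 10.9 (log2 2.32, 1.37 to 3.48).

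Among genes with enough UMIs, the signal chain itself had a smaller median difference. Of 15 Jak and Stat chain genes, 7 had enough UMIs, 1 was higher and 2 were lower, with a median of 0.16. Jak2, the kinase bound to Epor, differed by 0.16 (-0.25 to 0.58), Jak1 by 0.65 (0.36 to 0.95) and the adaptor Grb2 by -0.29 (-0.65 to 0.09). Of 23 lineage transcription factors, 9 had enough UMIs, 2 were higher and 2 lower, with a median of 0.12. Nfe2 (2.82) and Lmo2 (1.53) were the 2 higher, Ikzf1 (-3.50) and Tcf3 (-1.85) the 2 lower. Gata1, Tal1 and Klf1 differed by -0.35, -0.14 and 0.12. Feedback inhibitors had 3 of 11 members with enough UMIs, 1 of them higher, and the other cytokine receptors 2 of 19, with Ifnar1 higher at 3.11 (2.29 to 4.08) and Il1rl1 lower at -4.47 (-5.23 to -3.78).

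Kit, the stem cell factor receptor that early red cell progenitors carry and later lose, was nearly absent from the erythroid-like class. It had 15 UMIs in 6934 cells labelled P180, 0.341 CPM (0.191 to 0.562), spread over all 5 globin bins with 1, 1, 3, 7 and 3 UMIs. This was the lowest Kit level of any class of that library. A total of 15 UMIs, at most 1 in a cell, gives no order along the globin share, and whether they are free RNA was not tested.

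Kit did appear beside Epor in 1 cluster that the naming rule left unnamed. Its 85 cells had the highest median depth of the library, 46600 UMIs, and 1.54% globin, and were led by Npm1, Hspe1 and Ppia, genes of growth and protein folding, with Car1, a carbonic anhydrase of early red cells, among the leading genes. Here Kit was at 62.1 CPM (54.8 to 70.2) in 72.9% of cells and Epor at 62.8 CPM (55.5 to 70.9) in 91.8%. Both had a UMI in 60 of the 85 cells. Gata1 was at 143 CPM, Klf1 at 219 CPM and Tfrc at 480 CPM, all 16 erythroid markers had UMIs, and so did all 16 neutrophil markers and 8 of 12 progenitor markers; Cd34 had 2 UMIs and Mpo 9. Of the other receptors, Csf2ra was at 7.71 CPM (5.27 to 10.9) and Csf2rb at 0 UMIs.

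When this cluster was added to the globin bins, a choice made after seeing its values, Kit became 52.7 (46.5 to 59.6) non-globin CPM under 10% globin, 3.73 from 10 to 25% and 0.742 to 1.05 in the 3 higher bins. Epor changed little, at 64.5 (57.6 to 72.1) in the lowest bin. The Kit ratio of highest over lowest bin was then a log2 of -5.78 in place of -0.34, so any order of Kit along maturation rests on this cluster alone.

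Csf2rb was the other receptor with more than scattered UMIs in erythroid-like cells labelled P180, at 3.27 CPM (2.76 to 3.85) from 144 UMIs in 1.43% of cells. In non-globin CPM it was 0 under 10% globin, 6.33 (2.73 to 12.5) and 3.96 (2.26 to 6.42) in the next 2 bins, and 11.3 (8.86 to 14.1) and 14.4 (10.5 to 19.3) in the top 2. One cell held 13 of the 144 UMIs; without it the bin from 50 to 75% stood at 9.31 (7.14 to 11.9). That cell belonged to a cluster of 299 cells with Rsad2 and Isg15, genes induced by interferon, among its leading genes, where Csf2rb was 18.0 CPM (12.5 to 25.2), or 11.2 (6.94 to 17.1) without the cell, against 2.61 (2.15 to 3.15) in the other erythroid-like clusters. Csf2rb lies at chr15:78325752-78353847 (mm10), 20030 bases from its near-identical copy Csf2rb2, a receptor chain for interleukin-3 found in mice. Reads of the 2 genes may have been split between them, so levels of both are uncertain. Csf2rb2 also stood higher in the top 2 globin bins, at 5.85 and 6.40 non-globin CPM against 0 to 2.37 in the others. For both genes the interval of the bin from 10 to 25% overlapped those of the top 2 bins. The scale mattered here too. In CPM over all UMIs, Csf2rb was 0, 5.16, 2.40, 3.90 and 2.87 from the lowest to the highest bin. On that scale Csf2rb2 was 0, 1.93, 1.05, 2.03 and 1.27, so neither gene was highest at 75% and over.

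Csf3r, the receptor that drives neutrophil formation and release, marked neutrophil-like cells under E18.5. It stood at 2017 CPM (1943 to 2094) there, in 97.5% of 399 cells, 10.6-fold (9.11 to 12.3) above monocyte-like cells at 191 CPM (165 to 220). Macrophage-like cells were at 57.1 CPM, dendritic-like at 11.7 CPM and endothelial-like cells, taken as background, at 3.04 CPM in 1.18% of cells. Under P180 the 1068 neutrophil-like cells stood at 81.6 CPM (77.8 to 85.6), 1.10-fold (1.00 to 1.22) the level of monocyte-like cells at 73.9 CPM (67.7 to 80.6).

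The class was filled by different clusters in the 2 libraries. Under E18.5, 379 of the 399 cells were a cluster led by S100a9, S100a8 and Retnlg, of which Retnlg is a gene of mature neutrophils. Under P180, 439 cells were led by Ngp, 428 by Stfa2 and 143 by Elane, and only 58 by Retnlg; Ngp and Camp are made in granules of maturing neutrophils, and Elane, Prtn3 and Mpo in the earliest ones. Csf3r was 58.5 CPM (52.3 to 65.2) in the Elane-led, 51.7 CPM (47.4 to 56.4) in the Ngp-led, 101 CPM (92.9 to 111) in the Stfa2-led and 1364 CPM (1224 to 1515) in the Retnlg-led cluster. Under E18.5 it was 129 CPM (87.1 to 184) in 20 cells led by S100a9, S100a8 and Camp and 2406 CPM (2316 to 2498) in the Retnlg-led cluster. In both libraries the Retnlg-led cluster thus stood far above the Camp-led or Ngp-led one. Over the 42 clusters the genes most alike to Csf3r were Hcar2 (r 0.98), Cd300lb (0.96) and Clec4d (0.94), the last 2 of which are receptors of myeloid cells.

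**Figure D3:**
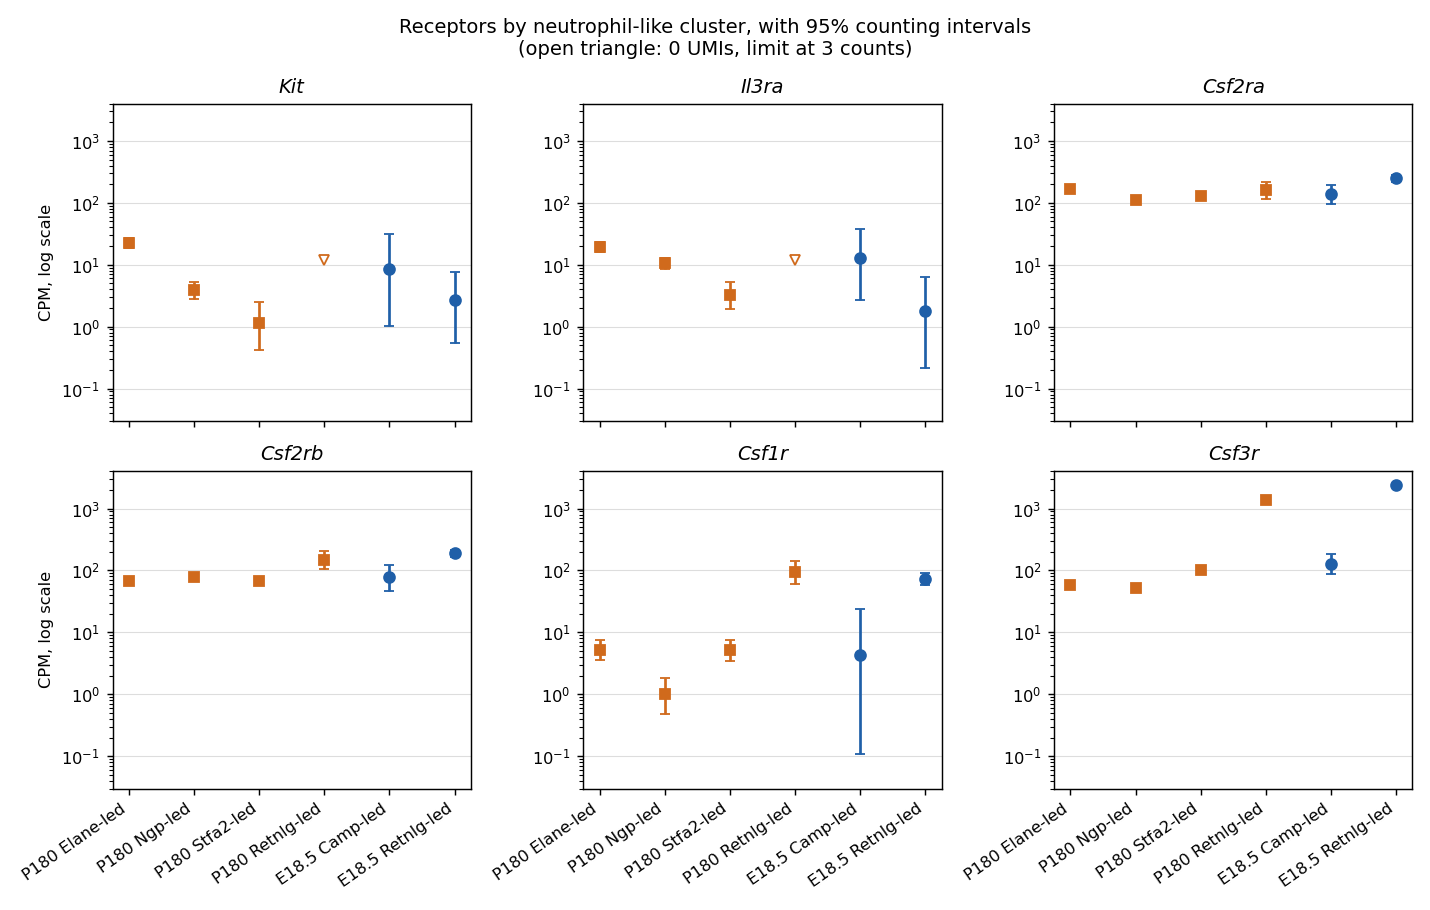
Levels of 6 receptors in the 6 neutrophil-like clusters, in CPM on a log scale (y axis), with 95% counting intervals; orange squares are clusters of the library labelled P180, blue circles of E18.5, and open triangles mark 0 UMIs at the level that 3 counts would give. Kit and Il3ra are highest in the Elane-led cluster, at 22.3 and 19.4 CPM, while Csf3r and Csf1r are highest in the Retnlg-led clusters.

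Other receptors divided the neutrophil clusters in the same or the opposite order. Csf1r, the macrophage growth factor receptor, was 5.25 CPM in Elane-led, 0.991 in Ngp-led and 5.23 in Stfa2-led cells, and 94.1 CPM (60.3 to 140) in the Retnlg-led cluster, close to the 73.5 CPM (58.5 to 91.1) of the Retnlg-led cluster under E18.5. Kit ran the other way, at 22.3 CPM (123 UMIs) in Elane-led, 3.87 in Ngp-led and 1.16 in Stfa2-led cells, with 0 UMIs in Retnlg-led cells, where 3 counts would give 11.8 CPM. Il3ra was at 19.4 CPM (15.9 to 23.4), 10.6 and 3.30 in the first 3 clusters and at 0 UMIs in the fourth. Csf2ra varied little, from 112 CPM in Ngp-led to 166 CPM in Elane-led cells under P180, and Csf2rb was 67.9 to 77.5 CPM in the first 3 and 149 CPM (105 to 204) in Retnlg-led cells.

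Set side by side as whole classes, 6 receptors had at least 50 UMIs in neutrophil-like cells of either library; 2 were at least 2-fold higher under P180, where 35.9% of all 9613 genes tested were, and 3 at least 2-fold lower, where 18.1% were. Csf3r differed by a log2 of -4.63 (-4.72 to -4.54), Csf1r by -3.85 (-4.29 to -3.40) and Csf2rb by -1.21 (-1.41 to -1.01). Il3ra and Kit were higher under P180, by 1.58 (0.34 to 3.22) and 1.12 (-0.13 to 2.76), on 5 UMIs each under E18.5. Between the Retnlg-led clusters alone, a choice made after seeing the data, Csf3r differed by -0.82 (-0.98 to -0.66), Csf2ra by -0.63 (-1.14 to -0.15), Csf2rb by -0.35 (-0.89 to 0.16) and Csf1r by 0.36 (-0.36 to 1.03). The fold of Csf3r and of Csf1r between the classes thus differed from that between these clusters.

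Partner and pathway genes were read in the same class. Of 3 partner chains, all tested, 0 were higher under P180, 2 lower and 1 between, with a median log2 of -1.14. Crlf2 was at 94.0 CPM under E18.5 and 42.8 under P180, while Il7r, with which it pairs, had 2 and 3 UMIs in these cells. Of 15 Jak and Stat chain genes, all tested, 1 was higher and 7 were lower under P180 with a median log2 of -0.98, beside a median of 0.46 over all genes; Lyn, a kinase of myeloid cells, was at 896 and 269 CPM, Stat3 at 479 and 166 CPM and Jak1 at 388 and 156 CPM. Targets were split, 4 higher and 5 lower of 11 tested, with Mcl1, a survival factor of neutrophils, at 1890 and 335 CPM and Pim1 at 1437 and 74.7 CPM. Cebpe, which drives granule genes, was at 77.8 and 615 CPM and Cebpb at 2771 and 233 CPM. Csf1, the ligand of Csf1r, was at 324 CPM under E18.5 and 5.09 CPM under P180.

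Csf1r under E18.5 was highest in macrophage-like cells, at 552 CPM (515 to 592) in 82.1% of 195 cells, 1.81-fold (1.58 to 2.07) above monocyte-like cells at 305 CPM (272 to 342). A cluster of 159 macrophage-like cells led by complement C1q genes was at 616 CPM, and one of 36 cells led by Negr1 and Fcgr4 at 220 CPM. Dendritic-like (62.4 CPM) and neutrophil-like cells (61.7 CPM) followed and did not differ beyond counting error. Endothelial-like cells were at 0.507 CPM in 0.197% of cells. The genes most alike over the clusters were Cd68 (r 0.91), Adgre1 (0.90) and Cd300a (0.89), the first 2 of which are markers of macrophages. Under P180 no cluster was named macrophage-like; monocyte-like cells led at 93.1 CPM (86.1 to 101), then dendritic-like at 31.6 CPM (23.6 to 41.4) and neutrophil-like at 4.28 CPM.

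Outside blood, cholangiocyte-like cells under E18.5 (bile duct cells, 151 cells) had Csf1r at 64.2 CPM (54.5 to 75.2) in 51.0% of cells and Csf2ra at 25.02 CPM (19.1 to 32.2) in 28.5%. Their Csf2rb and Csf3r were at 0 UMIs. Of 12 macrophage markers 6 were at 0 there: C1qb, Vsig4, Clec4f, Timd4, Marco and Cd163. The 12 summed to 73.8 CPM, against 76.0 CPM in dendritic-like cells, whose Csf1r level was close. Monocyte markers summed to 490 CPM in cholangiocyte-like and 1187 CPM in dendritic-like cells, and neutrophil markers to 884 and 88.4 CPM. Whether myeloid RNA has a part in these Csf1r and Csf2ra levels was not tested.

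In monocyte-like cells 7 receptors had enough UMIs. One of them, Kit, was at least 2-fold higher under P180 against 31% of 9070 genes, and 2 were at least 2-fold lower against 8.49%. Csf1r differed by a log2 of -1.71 (-1.91 to -1.51) and Csf3r by -1.37 (-1.61 to -1.12). Csf2rb (122 and 118 CPM), Flt3 (21.2 and 31.4 CPM) and Il3ra (21.2 and 29.7 CPM) had intervals of the ratio that include 0 on the log2 scale. Kit was at 0 UMIs in 115 cells labelled E18.5 and at 30.7 CPM (26.7 to 35.1) in 248 cells labelled P180. Counted against the floor of 3 counts, it was 10.1-fold higher, with a lower limit of 3.03 on the log2 scale.

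The monocyte-like cluster labelled P180 also held transcripts of less mature and of granulocytic cells. Its leading genes included Tmsb10, Lyz2 and Plac8, and the 12 monocyte markers summed to 3278 CPM, against 8141 CPM under E18.5. Neutrophil markers summed to 11176 CPM against 250 CPM, with all 16 detected under P180 and Camp, Retnlg, Cxcr2 and Ly6g at 0 under E18.5, and the 12 progenitor markers to 331 CPM, all detected, against 32.4 CPM, with Hlf, Mecom, Myct1, Mycn, Hoxa9 and Sox4 at 0. Kit had a UMI in 52 of the 248 cells and Flt3 in 55, and 26 cells had both. Those 26 cells, chosen by these 2 receptors, had Cd34, a progenitor surface marker, at 173 CPM (148 to 200) against 61.6 CPM (55.4 to 68.2) in the other 222, and Ly6c2, of inflammatory monocytes, at 145 CPM (123 to 171) against 1187 CPM (1159 to 1215). Their Csf2ra was 44.4 CPM (32.3 to 59.6) against 153 CPM (144 to 164), Csf1r 54.5 CPM (40.9 to 71.1) against 99.6 CPM and Csf3r 42.4 CPM (30.5 to 57.3) against 79.1 CPM. Median depth was 38386 UMIs in the 26 cells and 24261 in the other 222, and the part of depth in these differences was not tested.

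GM-CSF and interleukin-3 chains were shared across the myeloid classes. Under E18.5 Csf2ra ran from neutrophil-like (229 CPM, 204 to 256) through monocyte-like (217 CPM), macrophage-like (169 CPM) to dendritic-like cells (161 CPM, 151 to 173), and the intervals of neighbours in that order overlapped, though the ratio of monocyte-like over macrophage-like cells (1.07 to 1.55) lay above 1. B cell-like cells followed, 23.3-fold lower, at 6.91 CPM. Under P180 monocyte-like (138 CPM), neutrophil-like (131 CPM) and dendritic-like cells (131 CPM) did not differ beyond counting error, with B cell-like at 18.9 CPM (13.8 to 25.2). Csf2rb ran in 3 steps under E18.5, from neutrophil-like (170 CPM, 149 to 194) and monocyte-like (122 CPM, 102 to 146) to dendritic-like (84.5 CPM, 76.9 to 92.7) and macrophage-like cells (68.6 CPM), the last 2 with overlapping intervals.

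Csf2rb was ordered otherwise under P180, with monocyte-like cells at 118 CPM (110 to 126) 1.60-fold (1.47 to 1.74) above neutrophil-like cells at 73.5 CPM (69.9 to 77.3). The log2 ratio of neutrophil-like over monocyte-like cells was 0.48 (0.15 to 0.81) under E18.5 and -0.68 (-0.80 to -0.55) under P180, beside the different neutrophil clusters given above. Csf2ra and Csf2rb had the highest correlation of any of the 36 pairs of receptors over the 42 clusters, with a Pearson r of 0.92, and both had Alox5ap, of leukotriene synthesis in myeloid cells, as the most alike gene (0.95 and 0.94).

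In B cell-like cells labelled E18.5, Csf2rb was uneven: 53 of its 62 UMIs were in a cluster of 193 cells (36.7 CPM, 27.5 to 48.0), against 1.81 and 1.74 CPM in clusters of 636 and 478 cells. T cell-like and NK cell-like cells had 0 Csf2rb UMIs.

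Il3ra was low and broad, with no class 2-fold above the next in either library. Monocyte-like (21.2 CPM, 13.1 to 32.5), macrophage-like (20.4 CPM) and dendritic-like cells (15.05 CPM) led the blood classes under E18.5 without differing beyond counting error, and T cell-like cells stood at 11.3 CPM (7.82 to 15.9). Under P180 monocyte-like cells led at 29.7 CPM (25.8 to 34.0), above dendritic-like (17.0 CPM, 11.3 to 24.6) and neutrophil-like cells (10.99 CPM, 9.62 to 12.5). Erythroid-like cells there were at 0.159 CPM. Under E18.5 mesenchymal-like (48.0 CPM, 29.3 to 74.1) and endothelial-like cells (33.7 CPM, 28.2 to 40.0, 12.4% of cells) were above every blood class, so endothelial-like cells cannot serve as a background for Il3ra. All 3 endothelial clusters had it, at 29.7 to 39.2 CPM. The genes most alike to Il3ra over the clusters were Gm14326 (r 0.91), Pde4a (0.88), a cAMP phosphodiesterase, and Lrrc58 (0.87).

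Flt3, the receptor of dendritic cell and lymphoid progenitors that conventional dendritic cells keep, was highest in dendritic-like cells in both libraries. It stood at 216 CPM (203 to 228) in 69.8% of 387 cells labelled E18.5 and at 158 CPM (140 to 179) in 88.9% of 72 cells labelled P180. Under E18.5 the next class was plasma cell-like at 27.0 CPM (20.3 to 35.2), then monocyte-like at 21.2 CPM and B cell-like at 14.4 CPM (11.7 to 17.7); under P180 it was monocyte-like at 31.4 CPM (27.4 to 35.9). Background was 1.27 CPM in endothelial-like cells under E18.5 and 0.0454 CPM in erythroid-like cells under P180. The most alike genes were Ifi205 (r 0.93), Naaa (0.91) and Mycl (0.91), of which Mycl is a transcription factor of dendritic cells.

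Among the named blood classes Kit, too, was highest in dendritic-like cells. It stood at 59.3 CPM (52.9 to 66.1) in 41.1% of cells under E18.5 and 41.3 CPM (32.1 to 52.3) in 58.3% under P180. Monocyte-like cells labelled P180 followed at 30.7 CPM (26.7 to 35.1), with an interval that overlaps that of dendritic-like cells. As background, B cell-like cells under E18.5 had a Kit UMI in 0.306% of cells, at a median depth of 4625 against 12866 UMIs in dendritic-like cells; thinned to 1000 UMIs the shares were 0.154% and 5.44%. Under P180 the B cell-like cells held precursors, a stage that can carry Kit, so they give no background; the lowest class, erythroid-like, had a Kit UMI in 0.216% of cells at a median depth of 5239 against 23380 in dendritic-like cells, and thinned shares were 0.0154% and 2.78%. Flt3 had a UMI in 143 of the 159 Kit cells under E18.5 and in 38 of the 42 under P180, and Kit in 53.0% and 59.4% of the Flt3 cells. The genes most alike to Kit were Zbtb46 (r 0.79), a transcription factor of conventional dendritic cells also found in endothelium, Olfm1 (0.78) and Dpagt1 (0.77).

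The 3 dendritic clusters under E18.5 differed in their receptors. In 151 cells led by H2-Ab1, Wdfy4 and Cd74, with Naaa and Irf8 among the leading genes (Wdfy4 and Irf8 act in cross-presenting dendritic cells), Flt3 was 289 CPM (268 to 311) and Csf1r 15.6 CPM (11.1 to 21.4). A cluster of 192 cells led by H2-Ab1, Cd74 and H2-Aa, with Lyz2, Cxcl9 and Cxcl2 among its leading genes, had Flt3 at 115 CPM (101 to 131), Csf1r at 140 CPM (124 to 158) and Csf2rb at 122 CPM (107 to 138) against 71.5 CPM (61.3 to 83.0). Kit was 69.0 CPM (59.0 to 80.3) in the first and 43.9 CPM (35.1 to 54.2) in the second. The third, 44 cells with Pclaf, a replication gene, among the leading genes, was close to the first at 235 CPM for Flt3 and 65.7 CPM for Kit. Csf2ra was at 171, 173 and 113 CPM.

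In dendritic-like cells 2 receptors passed 2-fold between the libraries, on 7 and 0 UMIs under P180. Of 8 receptors with enough UMIs, 0 were at least 2-fold higher under P180, where 2.33% of 8281 genes were, and 2 at least 2-fold lower, where 8.63% were. These were Csf3r, at 11.7 and 4.25 CPM (log2 -1.46, -2.83 to -0.33, on 7 UMIs under P180), and Il7r, at 11.1 CPM and 0 UMIs. Counted against the floor of 3 counts, Il7r was 6.12-fold lower, with an upper limit of -2.27 on the log2 scale. Of its 60 UMIs, 54 lay in the cluster led by H2-Ab1, Cd74 and H2-Aa. Flt3 differed by -0.44 (-0.64 to -0.25), Kit by -0.52 (-0.92 to -0.14), Csf1r by -0.98 (-1.43 to -0.56), Csf2ra by -0.31, Csf2rb by -0.23 and Il3ra by 0.18. Of 15 Jak and Stat chain genes 14 were tested and 0 were past 2-fold in either direction, with a median of -0.15 beside 0.01 over all genes.

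Il7r, needed for early B and T cells and kept by resting T cells, was highest in T cell-like cells under E18.5 and in B cell-like cells under P180. It was 415 CPM (391 to 439) in 60.4% of 490 T cell-like cells labelled E18.5, 26.3-fold above NK cell-like cells at 15.8 CPM (6.35 to 32.5). The 2 T cell-like clusters had 454 and 364 CPM. An unnamed cluster of 100 cells led by Ccl5, Xcl1 and Ccl4 was at 81.7 CPM. B cell-like cells of that library were at 0.768 CPM (0.249 to 1.79) from 5 UMIs in 1307 cells, near the 0.507 CPM of endothelial-like cells. Lef1, of lymphoid progenitors and naive T cells, Il2ra and the T cell adaptor Lat were most alike over the clusters, at 0.89, 0.88 and 0.86.

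In the 201 B cell-like cells labelled P180, Il7r was at 198 CPM (180 to 217) in 51.7% of cells, 30.6-fold above monocyte-like cells and against 0.159 CPM in erythroid-like cells. Only 18 cells were T cell-like there, with 13 Il7r UMIs. Between the B cell-like classes the log2 ratio was 8.01 (6.78 to 9.64), the largest in size among the 27 receptor and class pairs tested.

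B cell-like cells of the libraries differed in precursor transcripts. Vpreb1, Igll1, Rag1, Rag2 or Dntt, genes of B cell precursors, had a UMI in 78 of 201 cells labelled P180 and in 1 of 1307 labelled E18.5. In the 78 cells Il7r was 268 CPM (242 to 296) in 88.5% (79.2 to 94.6) of cells, and in the other 123 cells it was 91.6 CPM (73.4 to 113) in 28.5% (20.7 to 37.3), at median depths of 10553 and 5394 UMIs. This split was chosen after seeing the data. The 1306 cells without a precursor UMI under E18.5 had Il7r at 0.769 CPM. At these depths a cell with 0 UMIs of the 5 genes can still be a precursor, so the split does not separate stage from label.

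In all, 3 receptors had enough UMIs in B cell-like cells: 1 was higher under P180 against 23.4% of 8645 genes, and 1 lower against 18.1%, Csf2rb at 9.53 and 1.26 CPM (log2 -2.92, -5.24 to -1.31). Flt3 differed by -0.78 (-1.56 to -0.08). Il2rg, the partner of Il7r, was at 173 CPM under E18.5 and 58.3 CPM under P180, and Crlf2 at 33.0 and 26.4 CPM. Of 19 other cytokine receptors 11 were tested, 0 were higher and 8 lower, with a median of -2.15 beside 0.09 over all genes; Cxcr4, which holds cells in the marrow, was at 399 and 90.1 CPM, Il17ra at 88.0 and 54.5 CPM and Il4ra at 75.6 and 12.2 CPM.

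**Figure D4:**
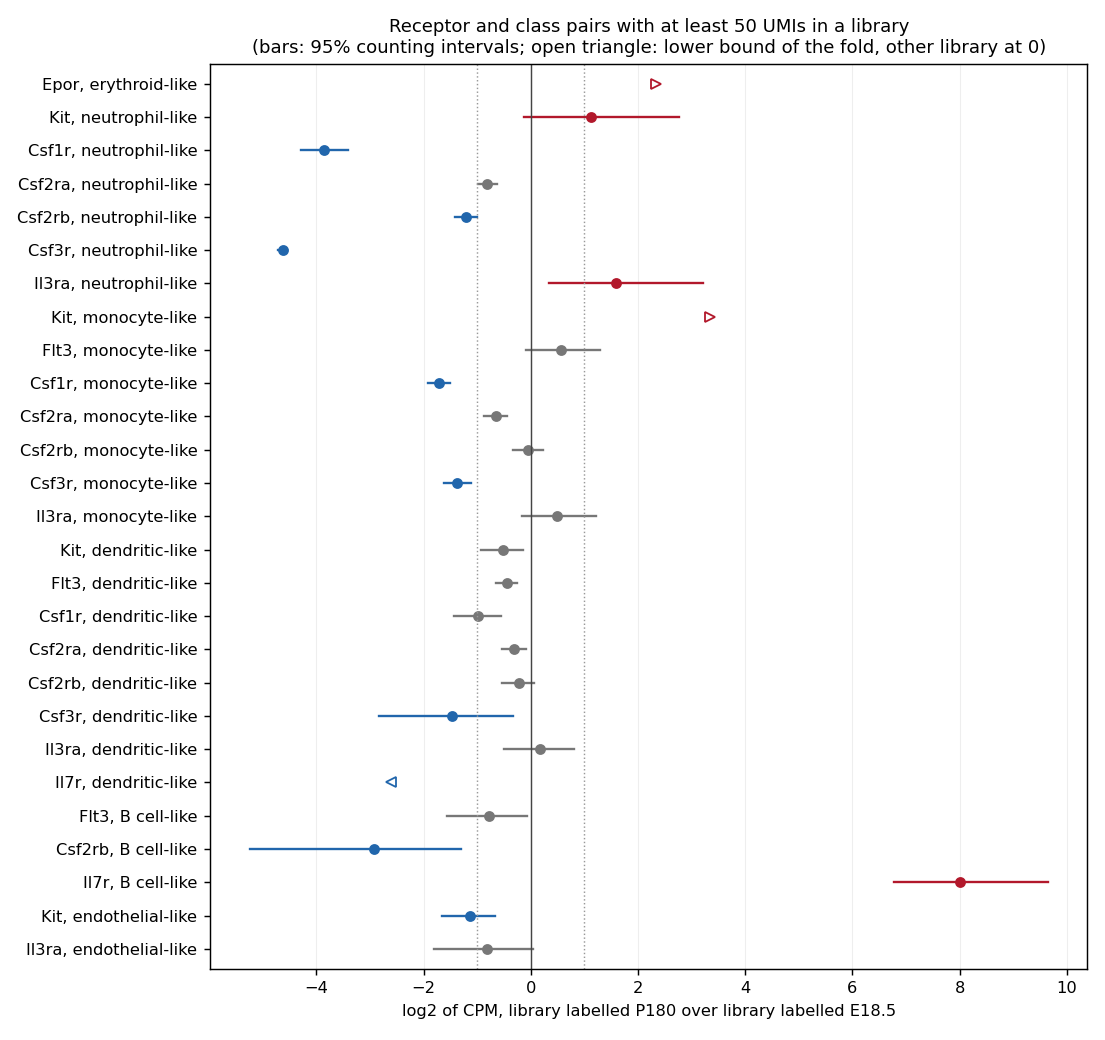
Log2 ratio of CPM in the library labelled P180 over the library labelled E18.5 (x axis), with 95% counting intervals. The y axis holds the 27 receptor and class pairs with at least 50 UMIs in either library. Red is at least 2-fold higher, blue at least 2-fold lower and grey between. Open triangles are bounds of a fold at the floor of 3 counts, where the other library had 0 UMIs. Pairs reach from -4.63 for Csf3r in neutrophil-like cells to 8.01 for Il7r in B cell-like cells.

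Over the 7 classes found in both libraries there were 63 receptor and class pairs, of which 27 had at least 50 UMIs; 5 were at least 2-fold higher under P180, 9 lower and 13 between. In erythroid-like cells 1 receptor, Epor, was tested and was higher, where 25.1% of 7369 genes were higher and 30% lower. No receptor reached 50 UMIs in mesenchymal-like cells, where 35.4% of 4033 genes were higher and 22.6% lower. A share of genes past 2-fold of that size in most classes means that these counts of receptors say little of the receptors in particular.

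Endothelial-like cells held the highest Kit of any named class in both libraries, at 134 CPM (123 to 146) in 24.6% of 1017 cells labelled E18.5 and 60.9 CPM (43.1 to 83.6) in 20.9% of 110 cells labelled P180. The interval under P180 overlaps that of dendritic-like cells (41.3 CPM, 32.1 to 52.3). Under E18.5 Kit was set to 2 of the 3 clusters. A cluster of 407 cells led by Ptprb, Stab2 and Plpp3, of which Stab2 marks liver sinusoids, was at 305 CPM (274 to 339), one of 207 cells led by Rspo3, of central vein endothelium, at 147 CPM (126 to 171), and one of 403 cells led by Ldb2 and Mecom at 3.71 CPM (1.36 to 8.07). Of 2 receptors tested in the class, 0 were higher under P180 against 4.91% of 8232 genes and 1 lower against 10.1%: Kit, with a log2 ratio of -1.14 (-1.65 to -0.66). All 110 cells labelled P180 were 1 cluster led by Fabp4 and Ptprb, so the mixture of vessel types differs too. Il3ra differed by -0.81 (-1.80 to 0.04).

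Kitl, the ligand of Kit, was also highest in endothelial-like cells, at 278 CPM under E18.5 and 154 CPM under P180, with mesenchymal-like cells at 71.9 and 74.9 CPM. Csf1 followed in endothelial-like cells, at 56.8 and 11.2 CPM, and Flt3l, at 8.62 and 11.2 CPM. Mesenchymal-like cells under E18.5 had Csf1 at 192 CPM and Il34, the other ligand of Csf1r, at 62.3 CPM, and under P180 at 81.0 and 4.05 CPM. The class labelled P180 was mixed, with mesenchymal markers summed to 6721 CPM, cholangiocyte markers to 3459 CPM and hepatocyte markers to 2993 CPM. Under E18.5 these sums were 17093, 1098 and 352 CPM. The part of this mixture in the ligand levels was not tested. Il3 had 0 CPM in every class of both libraries, and Epo was at most 2.26 CPM in any class.

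Epor outside the blood classes was 17.6 CPM (8.80 to 31.5) in endothelial-like and 23.3 CPM (14.8 to 34.9) in mesenchymal-like cells labelled P180, from 11 and 23 UMIs. All 16 erythroid markers were detected in both classes, summed to 44412 and 62811 CPM; Klf1 was at 20.8 and 78.0 CPM and Gata1 at 4.80 and 31.4 CPM. In the same classes labelled E18.5, where Epor was 3.55 and 4.79 CPM, 8 and 6 of 16 were detected, summed to 3492 and 8305 CPM, with Gata1 and Klf1 at 0. The part of erythroid RNA in these Epor values was not tested.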

How the data were processed

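Single-cell RNA was captured from 2 livers with 10x Chromium 3′ v3 chemistry, 1 library each. The authors deposited whole-number UMI counts per gene and barcode, written by Cell Ranger 7.1.0 per the file headers; the submitters' processing notes also name fastp, Trimmomatic, Seurat and edgeR and the build mm10, without roles. Gene and barcode lists give names only. The files held 9871 (E18.5) and 9771 (P180) barcodes with 37709972 and 90128038 UMIs, and no barcode under 500 UMIs.

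Barcodes were kept with at least 200 genes, 500 UMIs and under 25% mitochondrial UMIs (4721 and 9582); many barcodes of the E18.5 label fell to these filters. Doublets were left out by the top Scrublet scores, at 0.8% per 1000 barcodes (178 and 735). Counts were scaled to 10000, and 2000 variable genes without the 9 receptors, clipped at 10, gave 30 principal components, 15 neighbours and Leiden clusters at resolution 1 (scanpy 1.11.5, leidenalg 0.10.2; 23 and 22 clusters). A cluster took the name with most markers, at least 3, among its top 50 genes by fold; 200 cells stayed unnamed. The members, marker sets and 7 gene lists were chosen with earlier results of these data known. Genes named are the 9 receptors, the 3 list members of highest level in a class, and the 3 genes most alike over clusters, among genes with at least 200 UMIs; others were named after their values were seen.

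UMIs were summed per class of at least 50 cells. A receptor was called past a threshold at 2-fold, among genes with at least 50 UMIs in 1 library; no test was run, since each label is 1 library. Where a group had 0 UMIs, the floor was 3 counts over the group. Intervals cover counting error only. Calls and clustering were tested on simulated data. Alternatives were another mitochondrial limit, doublets kept, other resolutions, another seed, receptors kept among the variable genes, other scales and other UMI minimums; leaving out replicates was not possible with 1 library per label.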

Additional observations from a re-analysis of the deposited data

Results flagged for a closer look

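Csf2rb was ordered differently in the libraries: neutrophil-like over monocyte-like cells gave a log2 ratio of 0.48 under E18.5 and -0.68 under P180, with opposite directions. The difference was not tested, since each label is 1 library. Csf3r had 5 UMIs in the 1352 globin-rich barcodes with fewer than 200 genes under E18.5, which the comparisons did not use, 1.38 CPM (0.446 to 3.21). That is more than the 3 counts that a count of 0 allows, but those 3 counts (0.825 CPM) lie inside the interval, and the level is not above the 3.04 CPM of endothelial-like cells, the background for Csf3r.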

How the results depend on the processing

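Under the other settings tried, the number of receptors at least 2-fold above the next blood class was 4 to 6 under E18.5 (5 as reported) and 4 to 7 under P180 (4 as reported), with 7 at resolution 0.5. Pairs at least 2-fold higher under P180, 5 as reported, were 3 with a mitochondrial limit of 10% and 11 with at least 10 UMIs. Pairs lower, 9 as reported, were 5 at resolution 0.5 and 5 with at least 200 UMIs. The log2 ratio of Epor over the globin bins, -0.12 as reported, was -0.79 at resolution 2, -0.69 with 5 bins of equal cell number, -2.34 on the scale of all UMIs and -1.81 as UMIs per 1000 cells. For Kit, -0.34 as reported on 4 UMIs in the 2 bins, it was -5.78 with the unnamed cluster, added after seeing the data, and 3.29 as a mean over single cells; a mitochondrial limit of 10%, doublets kept and resolution 2 gave no value, since the lowest bin had too few UMIs. For monocyte-like cells labelled P180, no mitochondrial limit and resolution 0.5 gave no level, since no class of that name had at least 50 cells. For dendritic-like cells labelled P180 the same held at resolution 0.5. Of 170 alternative values of the 18 top-class levels, 149 lay within the counting interval of the reported level and 2 differed from it by over 1.5 times: Csf3r in neutrophil-like cells labelled P180, up to 167 CPM, and Epor in erythroid-like cells labelled P180, up to 99.8 CPM. The causes were not tested, apart from what a scale changes by construction. No paired analysis was possible because each label has 1 library. Depth limits Epor under E18.5 and Kit in erythroid-like cells, where counts are at or near 0.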
